A study of Homo sapiens with 8 samples.

Results

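MHC class II genes and their master regulator were examined as 10 listed genes of the 35238 gene symbols counted in MP38 uveal melanoma (UM) cells: CIITA, CD74, HLA-DRA, HLA-DRB1, HLA-DPA1, HLA-DPB1, HLA-DQB1, HLA-DMA, HLA-DMB and HLA-DOA. They were taken by symbol from the count table, by a list that uses no measured value but was drawn up with earlier results of these data known. MHC class II molecules display peptides from endocytosed proteins to helper T cells. The HLA-DR, HLA-DP and HLA-DQ molecules are pairs of an alpha and a beta chain at the cell surface, CD74 is the invariant chain that escorts them through the cell and blocks their groove, HLA-DM (HLA-DMA with HLA-DMB) is the chaperone that exchanges the last invariant chain fragment for a peptide, and HLA-DO, of which HLA-DOA is the alpha chain, restrains HLA-DM. CIITA is a coactivator without DNA binding of its own that is recruited to the X and Y boxes of class II promoters by the RFX, CREB and NF-Y factors. It is constitutive in professional antigen-presenting cells and is switched on by interferon gamma in many other cells, tumor cells among them.

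MP38 is a single BAP1-mutant UM cell line, so every group holds the same mutant cells and no other cell type was cultured with them. All wells were kept for 24 h in medium with 0.1% DMSO. The DMSO group received no drug, and the other groups received 40 nM romidepsin or 40 nM quisinostat, both inhibitors of histone deacetylases (HDAC), or 1200 nM mivebresib, an inhibitor of the BET bromodomain proteins. There were 2 bulk RNA-seq libraries, replicates 1 and 2, in each of the 4 groups, and values are given in that order.

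The libraries held 28483235 to 29359024 counted reads, so 3 counts, the floor used here, correspond to 0.102 to 0.105 CPM (counts scaled to a common library size). Replicates differed by more than counting noise in every group, and most in DMSO, where the chi-square per degree of freedom was 58.1 against 9.52 to 9.79 in the drug groups. Replicates were separate wells of the one line, so p-values measure the spread between wells. That spread was estimated over all 4 groups together, so the wider spread of the DMSO wells has no estimate of its own. The melanocytic markers TYRP1, PMEL, MLANA, MITF and SOX10 were abundant in every library, and the summed level of 8 melanocytic markers ran from 3563 to 5452 CPM. Most of that sum was TYRP1, with group means of 2988 to 3676 CPM. Of the 7 of them that could be tested, 1 fell with romidepsin, 3 with quisinostat and 4 with mivebresib, where 15.8%, 25.1% and 24.1% of all genes fell. The remaining markers were lower: TYR had 42 to 111 counts, S100B had 6 to 14, and DCT, which was not tested, reached at most 5.

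The genes of the HLA-DM chains, HLA-DMA and HLA-DMB, lie next to each other in the class II region, HLA-DMB at chr6:32934629-32941070 and HLA-DMA at chr6:32948613-32969094, both on the minus strand (GENCODE 29, GRCh38). To show what their promoters share with those of other members, RefSeq promoters of GRCh38.p14 were searched on both strands for the X box core AGNNACNG and the Y box core GATTGG. The windows below are those of members that hold an X core with a Y core downstream of it within 60 bases, read 5′ to 3′ on the gene's own strand with both cores in capitals. They come from chr6:32941037-32941126 for HLA-DMB, chr6:32953164-32953220 for HLA-DMA, chr6:32666733-32666788 for HLA-DQB1, chr6:32589882-32589937 for HLA-DRB1 and chr6:33009646-33009702 for HLA-DOA, all on the minus strand.
HLA-DMB: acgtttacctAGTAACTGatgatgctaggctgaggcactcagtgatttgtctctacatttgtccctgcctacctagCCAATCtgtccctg
HLA-DMA: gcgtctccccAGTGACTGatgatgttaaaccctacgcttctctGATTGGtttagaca
HLA-DQB1: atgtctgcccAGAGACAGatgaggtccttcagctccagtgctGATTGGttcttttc
HLA-DRB1: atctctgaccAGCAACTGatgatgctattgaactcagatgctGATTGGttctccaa
HLA-DOA: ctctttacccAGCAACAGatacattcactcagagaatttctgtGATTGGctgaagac

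In HLA-DMA, HLA-DQB1, HLA-DRB1 and HLA-DOA, both cores stood on the same strand, 24 or 25 bases apart. In HLA-DMB the only exact match to the Y core was in the opposite orientation and 58 bases from the X core. The search took exact matches only. The HLA-DMB letters gatttg, 25 bases after the X core on the same strand, differ from GATTGG by a T in place of a G. An X core followed by a Y core on the same strand at any spacing occurred in 2.61% of the 35114 promoters in the table, and with a spacing of 15 to 35 bases, a range set after these sequences had been seen, in 0.41%. The X core alone was common, in 48.4% of promoters on either strand, and the Y core was in 15.1%. In HLA-DMA the X core letters also matched on the opposite strand, overlapping the printed match. The CD74 promoter held an X core only, that of HLA-DPB1 a Y core only, and of the 2 starts listed for HLA-DPA1 one held X cores and the other held neither. The table had no entry for CIITA or HLA-DRA. The gamma-activated site TTCNNNGAA, a motif of interferon gamma responsive promoters, was not matched in the 9 entries of the members and was present in 7.66% of all promoters. Which of these sequences were bound by any factor was not measured.

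Transcripts of the listed members were scarce in MP38. The 10 members together reached 5.67 and 5.88 CPM in the DMSO libraries. HLA-DQA1, a class II chain that is not among the members, alone had a DMSO mean of 5.29 CPM, or 0.763 CPM per kb of exon. Per kilobase of exon, HLA-DMA led the members in DMSO with 1.24 ± 0.00667 CPM per kb (SD, n = 2), followed by HLA-DRA with 0.283 ± 0.205 CPM per kb. HLA-DPB1 was next with 0.110 ± 0.0115 CPM per kb, and CD74, HLA-DRB1, CIITA, HLA-DQB1 and HLA-DMB followed between 0.0794 and 0.0427 CPM per kb. HLA-DPA1 and HLA-DOA came last, with 0.0126 and 0.0091 CPM per kb. Below HLA-DMA, the ranges of the mean ± SD of neighbours in this order overlapped, except for HLA-DMB and HLA-DPA1, and with 2 libraries these ranges are coarse. The position of CIITA depends on the length used, since its level was 0.435 CPM per kb by mean transcript length, second to HLA-DMA, against 0.0544 CPM per kb by the union of its exons.

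With 24-h treatment, the summed level of the members reached 9.55 and 9.57 CPM in romidepsin, 17.6 and 16.8 CPM in quisinostat, and 7.17 and 7.34 CPM in mivebresib. The drug libraries were all above the DMSO libraries, and quisinostat was the highest. With the HDAC inhibitors most of the increase was in HLA-DMB and HLA-DMA. In bulk RNA, fewer cells that express a gene and less RNA per cell cannot be told apart.

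**Figure D1:**
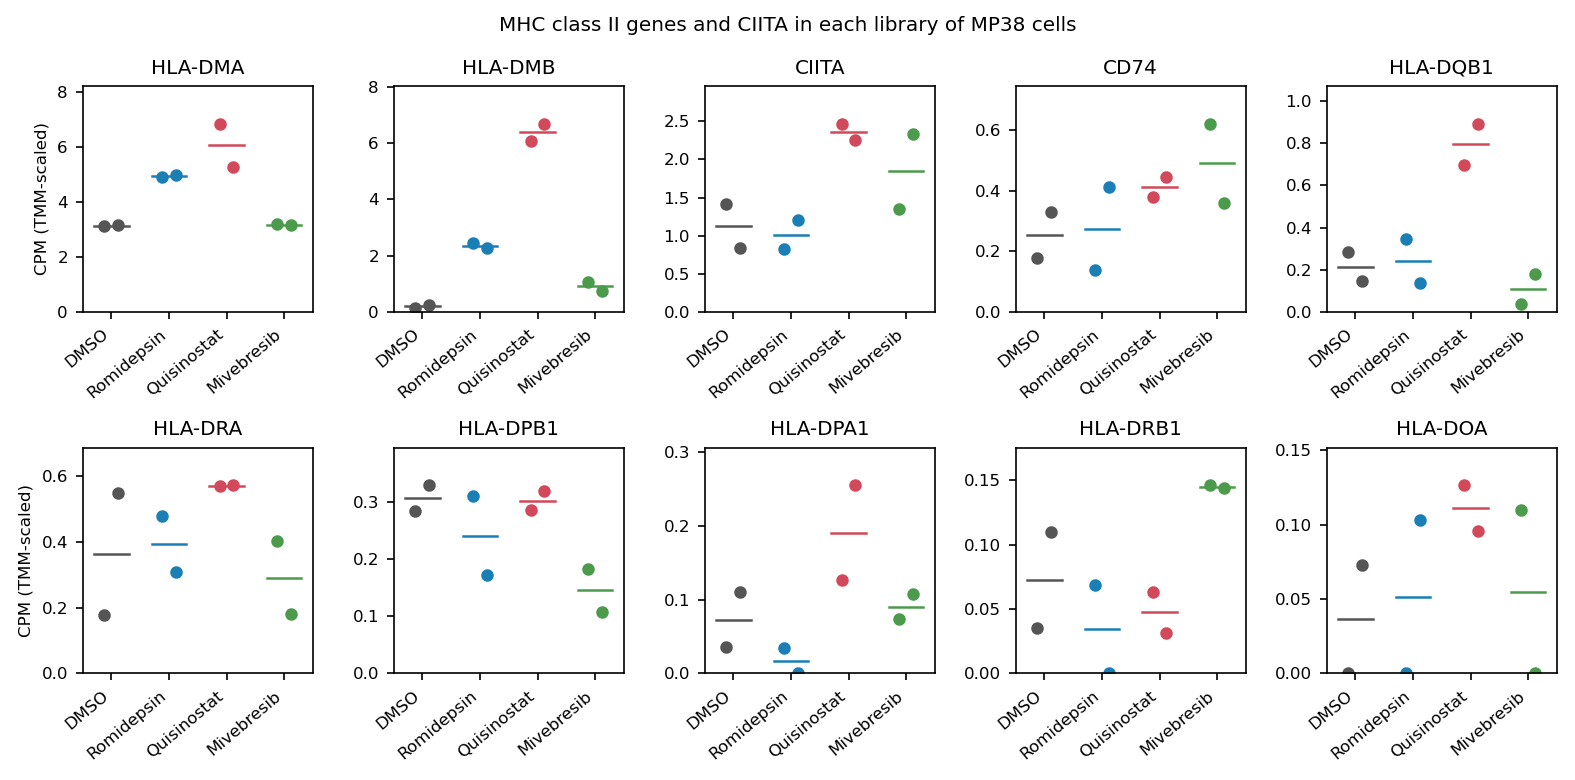
CPM after TMM scaling (y axis, linear from 0, a separate scale in each panel) of the 10 members in each of the 8 libraries, grouped by treatment (x axis). Points are libraries, replicate 1 to the left, and lines are group means. HLA-DMB rose in all 3 drug groups, from a DMSO mean of 0.199 CPM to 6.38 CPM with quisinostat.

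HLA-DMB, the beta chain of HLA-DM, had 4 and 7 counts in the DMSO libraries. It had 71 and 66 counts with romidepsin, 192 and 210 with quisinostat, and 29 and 21 with mivebresib. The groups did not overlap, and their order was quisinostat, romidepsin, mivebresib and DMSO. HLA-DMB was upregulated 11.7-fold by romidepsin (95% interval 7.04 to 19.3, edgeR quasi-likelihood adjusted p = 0.000171), 31.6-fold by quisinostat (20.1 to 49.7, adjusted p = 4.73e-06) and 4.51-fold by mivebresib (2.50 to 8.14, adjusted p = 0.00172). Of the 15085 genes tested, 143 had a larger log2 FC than HLA-DMB with romidepsin, 205 with quisinostat and 344 with mivebresib.

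HLA-DMA, the alpha chain of HLA-DM, started from a higher level than its partner and moved less. It had 88 and 86 counts in DMSO, 143 and 144 with romidepsin, 216 and 165 with quisinostat, and 87 and 88 with mivebresib. The HDAC inhibitor libraries were all above the DMSO libraries, while mivebresib stayed within 2 counts of DMSO. The log2 FC was 0.66 with romidepsin (SE 0.17, adjusted p = 0.0186) and 0.95 with quisinostat (SE 0.16, adjusted p = 0.00143). With mivebresib it was 0.02, with a 95% interval of -0.38 to 0.42. The romidepsin call was lost without either romidepsin library (adjusted p = 0.0823 and 0.0786).

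The balance of the HLA-DM chains shifted with treatment. Per kilobase of exon, HLA-DMA exceeded HLA-DMB 40.4 and 22.6 times in the DMSO libraries, 3.70 and 4.01 times with romidepsin, 2.07 and 1.44 times with quisinostat, and 5.51 and 7.70 times with mivebresib. Every drug library thus had a smaller ratio than either DMSO library, and quisinostat came nearest to equal levels. With mean transcript lengths the DMSO ratios were 42.6 and 23.8 and the quisinostat ratios 2.18 and 1.52. HLA-DMB made up 2.5% and 4.35% of the members' summed CPM in DMSO and 34.5% and 39.8% in quisinostat. The DMSO ratios rest on 4 and 7 counts of HLA-DMB.

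Annotation overlaps bear on both HLA-DM genes. By its outermost GENCODE end, at 32969094, the first 435 bases of HLA-DMA overlap BRD2 on the opposite strand, which had 3404 to 11061 counts. The RefSeq promoter of HLA-DMA searched above lies at chr6:32953048-32953347, outside BRD2 (chr6:32968660-32981505). BRD2, a BET protein gene and thus a target of mivebresib, was upregulated by mivebresib (log2 FC 1.15, adjusted p = 1.46e-05) and downregulated by quisinostat (log2 FC -0.68, adjusted p = 0.000167). A readthrough transcript, AL645941.2, overlaps HLA-DMA and HLA-DMB on their own strand and is not a symbol of the count table. Whether the counting used strand is not given in the sources used here.

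CIITA, at chr16:10866222-10943021 on the plus strand, had 40 and 23 counts in DMSO. It had 24 and 35 counts with romidepsin, 78 and 71 with quisinostat, and 37 and 65 with mivebresib. By CPM, both quisinostat libraries were above DMSO and romidepsin, the romidepsin libraries overlapped DMSO, and of the mivebresib libraries replicate 1 lay within the DMSO range and replicate 2 between the quisinostat libraries. CIITA was upregulated by quisinostat (log2 FC 1.06, 95% interval 0.28 to 1.84, adjusted p = 0.0288). With romidepsin the log2 FC was -0.16 (95% interval -1.03 to 0.72), and with mivebresib it was 0.71 (-0.11 to 1.52, adjusted p = 0.138). The quisinostat call was lost without DMSO replicate 2 (log2 FC 0.73, adjusted p = 0.108) and without quisinostat replicate 1 or 2 (adjusted p = 0.11 and 0.082), and mivebresib passed without DMSO replicate 1 (log2 FC 1.13, adjusted p = 0.0463).

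CIITA shares 13570 bases with DEXI on the opposite strand, a gene of 742 to 1408 counts. The log2 FC of DEXI was -0.37 with romidepsin, -0.11 with quisinostat and 0.48 with mivebresib, of which only the last passed (adjusted p = 0.0374), a call lost without DMSO replicate 2 (0.111) and without either mivebresib library (0.153 and 0.105). If strand was not used, DEXI reads in shared exons could stand in the CIITA counts, and their part was not tested.

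CD74, at chr5:150401637-150412929 on the minus strand, had 5 and 9 counts in DMSO. It had 4 and 12 counts with romidepsin, 12 and 14 with quisinostat, and 17 and 10 with mivebresib. The quisinostat and mivebresib libraries were above the DMSO libraries, and none of the comparisons passed. The log2 FC was 0.70 with quisinostat (95% interval -0.64 to 2.04) and 0.95 with mivebresib (-0.38 to 2.28), intervals whose upper ends are folds of 4.12 and 4.84. A change of CD74 within these intervals could be missed at this depth.

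HLA-DQB1, the beta chain of HLA-DQ, and HLA-DRA were the surface chains among the tested members. The change of one was not tested against that of the other. HLA-DQB1 had 8 and 4 counts in DMSO, 10 and 4 with romidepsin, 22 and 28 with quisinostat, and 1 and 5 with mivebresib. Quisinostat was above the other groups, and the rest overlapped. It met the filter on low counts through its quisinostat libraries alone, so it was tested because it was high there. The fitted rise with quisinostat was 3.63-fold (95% interval 1.5 to 8.79, adjusted p = 0.0213), but the call was lost with DESeq2 (adjusted p = 0.079), without DMSO replicate 2 (0.0885) and without quisinostat replicate 1 or 2 (0.0586 and 0.12). Its alpha chain partner HLA-DQA1, which is not among the members, had 148 and 146 counts in DMSO, 176 and 165 with romidepsin, 214 and 207 with quisinostat, and 163 and 188 with mivebresib. All drug libraries were above DMSO for HLA-DQA1, and quisinostat alone passed (log2 FC 0.34, adjusted p = 0.0482). This call lies close to the threshold and was not tried under the alternative settings or without single libraries.

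HLA-DRA, the alpha chain of HLA-DR at chr6:32439842-32445046, had 5 and 15 counts in DMSO. It had 14 and 9 counts with romidepsin, 18 and 18 with quisinostat, and 11 and 5 with mivebresib. The quisinostat libraries were the highest and the other groups overlapped. The log2 FC with quisinostat was 0.66 (95% interval -0.59 to 1.90), which did not pass.

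The remaining members were too low to be tested. HLA-DRB1, the beta chain of HLA-DR, had 1 and 3 counts in DMSO, 2 and 0 with romidepsin, 2 and 1 with quisinostat, and 4 and 4 with mivebresib. HLA-DPA1, the alpha chain of HLA-DP, had 1 and 3 counts in DMSO, 1 and 0 with romidepsin, 4 and 8 with quisinostat, and 2 and 3 with mivebresib. Its partner HLA-DPB1 had 8 and 9 counts in DMSO, 9 and 5 with romidepsin, 9 and 10 with quisinostat, and 5 and 3 with mivebresib. HLA-DOA had 0 and 2 counts in DMSO, 0 and 3 with romidepsin, 4 and 3 with quisinostat, and 3 and 0 with mivebresib. None of these genes exceeded 10 counts in any library, and no fold change is given for them. HLA-DPA1 and HLA-DPB1 overlap by 4850 bases on opposite strands. How reads that match several HLA genes were counted is not given in the sources used here, which leaves the chains of each family uncertain, HLA-DRB1 among them.

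The members' calls are set here beside those of all genes, in comparisons that share the DMSO libraries. Of the 6 members tested, 2 rose with romidepsin, where 15.2% of all genes rose. With quisinostat 4 rose, where 28.0% of all genes rose, and with mivebresib 1 rose, where 22.2% rose. No tested member fell against DMSO. Beyond a log2 FC of 1.5, HLA-DMB was the only member to pass with romidepsin and with mivebresib, where 3.77% and 3.96% of genes did, and HLA-DMB and HLA-DQB1 passed with quisinostat, where 11.2% did. HLA-DMB, HLA-DQB1 and CD74 had no DMSO library at the minimum of the filter on low counts and were tested through drug libraries alone, HLA-DQB1 through quisinostat alone. These counts of members, and the medians that follow, therefore describe the genes and do not support a change of the group. The median log2 FC of the tested members was 0.14 with romidepsin, 1.01 with quisinostat and 0.36 with mivebresib, beside medians between -0.01 and 0.01 over all genes.

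**Figure D2:**
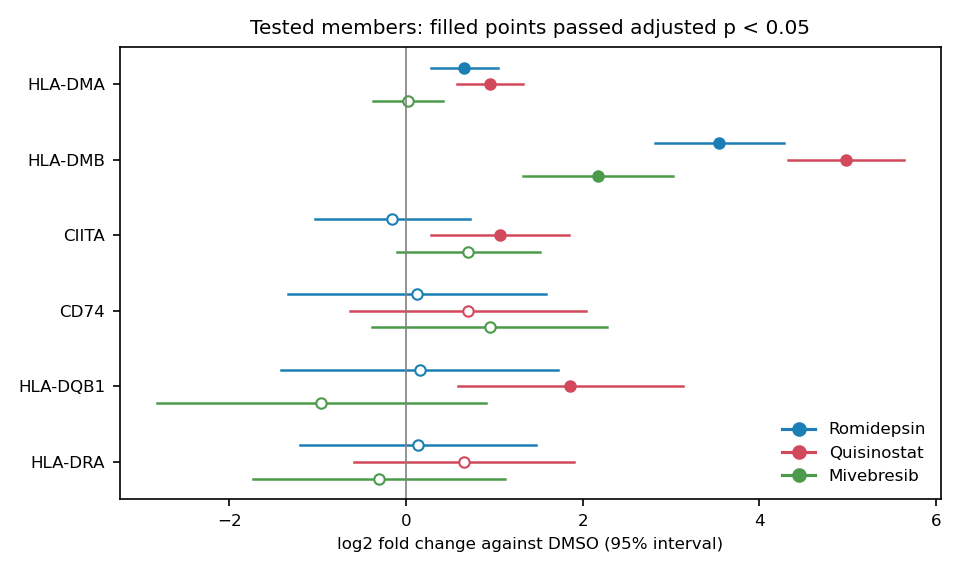
log2 fold change against DMSO (x axis) with its 95% interval for the 6 tested members, by drug. Filled points passed an adjusted p below 0.05. The intervals of HLA-DMB lie above 0 for all 3 drugs, and those of CD74 and HLA-DRA, with at most 18 counts in any library, span 0.

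The drugs were also compared directly. Quisinostat exceeded romidepsin, at the same dose and time, for HLA-DMB by a log2 FC of 1.44 (95% interval 1.00 to 1.87, adjusted p = 0.000916). CIITA was higher in quisinostat by 1.22 (0.43 to 2.01, adjusted p = 0.0253) and HLA-DQB1 by 1.70 (0.47 to 2.94, adjusted p = 0.039). For HLA-DMA the difference was 0.29 (-0.06 to 0.65), which did not pass. Of all genes, 21.0% were higher in quisinostat, and nothing is read from the members' count of 3 of 6, since HLA-DQB1 was tested through its quisinostat libraries alone. Leaving out any of the 4 libraries compared ended the calls of CIITA (adjusted p = 0.0553 to 0.154) and HLA-DQB1 (0.0613 to 0.22), and that of HLA-DQB1 was also lost with DESeq2 (0.14), with no filter on low counts (0.0596) and with the replicate number as a block (0.0578).

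Mivebresib, at a higher dose than the HDAC inhibitors, was lower than quisinostat for HLA-DMB by a log2 FC of -2.81, for HLA-DQB1 by -2.82 and for HLA-DMA by -0.93 (adjusted p = 1.71e-05, 0.00525 and 0.00133), and 31.5% of all genes were lower. HLA-DQB1 was tested through its quisinostat libraries alone and had 1 and 5 counts with mivebresib, so nothing is read from its call here. Against romidepsin, mivebresib was lower for HLA-DMB by -1.37 (adjusted p = 0.00174) and for HLA-DMA by -0.64 (adjusted p = 0.0127), where 25.2% of all genes were lower. The HLA-DMA call against romidepsin was lost without any one of those 4 libraries (adjusted p = 0.0521 to 0.0597). CIITA was 0.86 higher in mivebresib than in romidepsin (95% interval 0.04 to 1.68, adjusted p = 0.0775), and passed without DMSO replicate 1 or 2 or mivebresib replicate 1.

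The genes around HLA-DMB did not move as a block. PSMB9, an immunoproteasome subunit with its start at -96.9 kb from that of HLA-DMB, had 81 and 42 counts in DMSO, 146 and 121 with romidepsin, 244 and 204 with quisinostat, and 62 and 34 with mivebresib. It was upregulated by quisinostat (log2 FC 1.69, adjusted p = 0.002) and by romidepsin (1.05, adjusted p = 0.0369), the latter not without DMSO replicate 2 (0.0805), either romidepsin library (0.181 and 0.0795) or either quisinostat library (0.0574 for both). PSMB8, its neighbour and another immunoproteasome subunit, was downregulated by mivebresib from 478 and 384 counts to 119 and 90 (log2 FC -2.03, adjusted p = 4.34e-05). TAP1, a subunit of the class I peptide transporter, fell with mivebresib (log2 FC -0.69, adjusted p = 0.00592, but 0.0577 without mivebresib replicate 2), and its partner TAP2 passed with none of the drugs. Around CIITA, CLEC16A rose with each drug (log2 FC 0.54, 0.81 and 0.59 with romidepsin, quisinostat and mivebresib), while RMI2, a DNA repair gene, fell with each (-1.14, -1.20 and -1.09). TCOF1, beside CD74, fell with each drug (-0.54, -1.29 and -0.51).

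**Figure D3:**
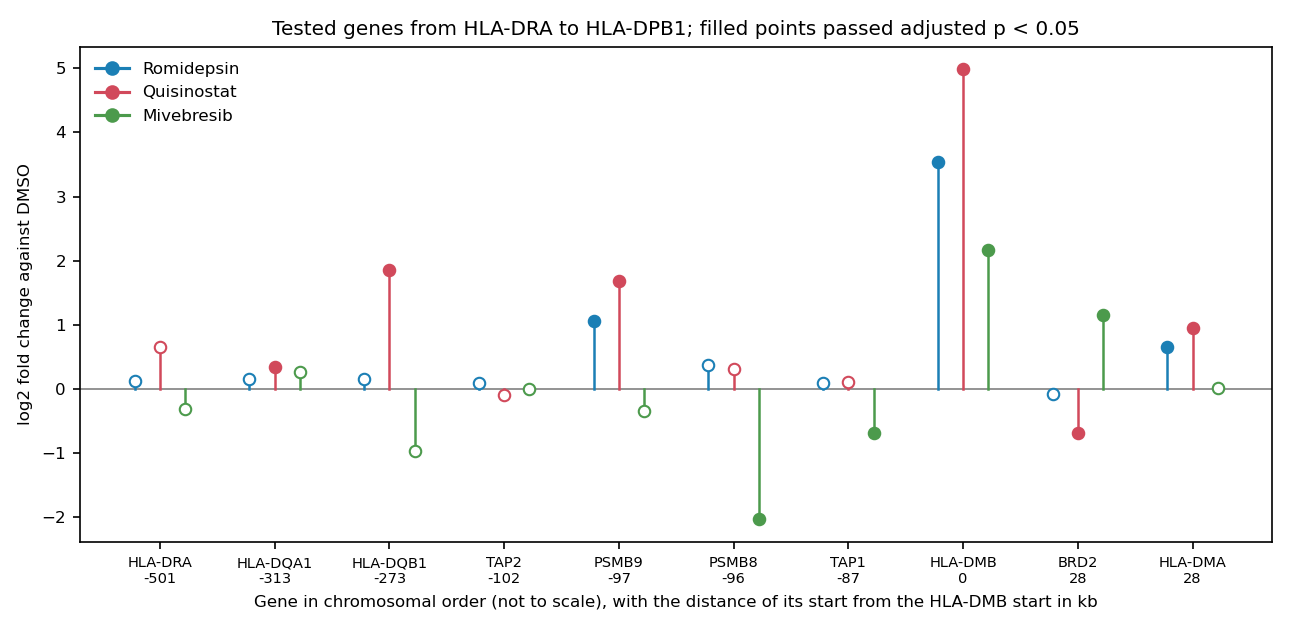
log2 fold change against DMSO (y axis) of the 10 tested genes between HLA-DRA and HLA-DPB1, in chromosomal order and not to scale (x axis, with the distance of each start from that of HLA-DMB in kb), by drug. Filled points passed an adjusted p below 0.05. Starts are the outermost GENCODE ends. HLA-DMB stands above its neighbours for each drug. BRD2, whose start lies beside the outermost GENCODE end of HLA-DMA, changed in opposite directions with quisinostat and mivebresib.

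The factors that place CIITA on class II promoters were all expressed. Of 10 genes of this promoter complex, 1 rose and 4 fell with romidepsin, 3 fell with quisinostat, and 2 rose and 5 fell with mivebresib, with median log2 FCs of -0.18, -0.17 and -0.28. Over all genes, 15.2% rose and 15.8% fell with romidepsin, 28.0% and 25.1% with quisinostat, and 22.2% and 24.1% with mivebresib. Under the alternative settings that kept both libraries of the groups compared, 2 to 4 of the 10 genes fell with romidepsin. With quisinostat 0 to 2 rose and 2 to 3 fell there, and with mivebresib 1 to 2 rose and 5 fell. The number that fell with romidepsin was 1 without romidepsin replicate 1 and 2 without romidepsin replicate 2 or either quisinostat library, and the number that rose was 0 without either romidepsin library. With quisinostat 5 fell without DMSO replicate 2 and 2 without quisinostat replicate 1, and with mivebresib 1 rose without mivebresib replicate 2. CREBBP, a histone acetyltransferase coactivator, fell with each drug (log2 FC -0.54, -0.87 and -0.58). With mivebresib, RFX5 and RFXANK, subunits of the RFX complex, fell (log2 FC -0.73 and -1.06), and so did the acetyltransferase KAT2B (-1.58), from 916 and 859 counts to 310 and 278. NFYA, the sequence-specific subunit of NF-Y, rose with mivebresib (0.59, adjusted p = 0.000258).

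The route from interferon gamma to CIITA was present without a common direction. Of its 8 genes, 1 fell with romidepsin, 1 rose and 1 fell with quisinostat, and 3 rose and 2 fell with mivebresib, beside shares of all genes of 15.8% lower, 28.0% higher and 25.1% lower, and 22.2% higher and 24.1% lower. The numbers moved by 1 gene at most without single libraries. IRF1, an interferon-induced factor that acts on the CIITA promoter, had 292 to 382 counts and passed with none of the drugs. With mivebresib the receptor subunit IFNGR1 rose (log2 FC 0.68, adjusted p = 0.0131, but 0.0561 and 0.068 without mivebresib replicate 1 or 2) and its partner IFNGR2 fell (-1.16, adjusted p = 0.000585). SOCS1, a feedback inhibitor of this pathway, rose with mivebresib from 13 and 5 counts to 47 and 53 (log2 FC 2.47, adjusted p = 0.00675). USF1, which binds the interferon-responsive CIITA promoter, fell with each drug (-0.89, -0.57 and -0.45).

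Among lineage factors that act on CIITA in immune cells, IRF4 was the abundant one, with 1550 and 1578 counts in DMSO. It fell to 845 and 924 counts with quisinostat (log2 FC -1.0, adjusted p = 3.03e-05) and to 1147 and 1259 with mivebresib (-0.37, adjusted p = 0.00685, but 0.0552 without mivebresib replicate 1), and had 1641 and 1659 counts with romidepsin. IRF8 had 0 and 1 counts in DMSO, 7 and 5 with romidepsin, 15 and 10 with quisinostat, and 9 and 6 with mivebresib. IRF8 met the filter on low counts through its quisinostat libraries alone, so it was tested because it was high there. It passed in each comparison with DMSO (adjusted p = 0.0362, 0.00345 and 0.0123), all from counts near the floor, and no fold is given against such a control. With no filter on low counts it did not pass with romidepsin (adjusted p = 0.056). For these reasons nothing is read from its calls. The romidepsin call was lost without any single library other than DMSO replicate 2 (adjusted p = 0.0529 to 0.161), and the mivebresib call without DMSO replicate 1 (0.0665), without mivebresib replicate 1 (0.0627) and with DESeq2 (0.053). PRDM1, a repressor of CIITA in plasma cells, had 2 and 5 counts in DMSO and 0 and 0 with mivebresib, and did not pass. SPI1 was too low to be tested.

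The class II processing list held 12 tested genes. They are genes that prepare peptides and invariant chain for class II loading, and the ubiquitin ligases MARCH1 and MARCH8. Of these 12, 1 rose with romidepsin, 6 rose and 1 fell with quisinostat, and 6 rose with mivebresib. Their median log2 FCs were 0.08, 0.45 and 0.41. Of all genes, 15.2%, 28.0% and 22.2% rose with these drugs and 25.1% fell with quisinostat. DMSO replicate 2 moved these numbers most, since without it 4 rose with romidepsin and 10 with mivebresib, while 3 rose with mivebresib without mivebresib replicate 1 and 4 without mivebresib replicate 2. Without DMSO replicate 1, 2 fell with romidepsin and 3 with quisinostat, and without DMSO replicate 2 or either quisinostat library none fell with quisinostat. IFI30, the lysosomal thiol reductase that opens disulfide bonds of antigens, had 157 and 159 counts in DMSO, 354 and 327 with romidepsin, 716 and 661 with quisinostat, and 764 and 732 with mivebresib. Its log2 FC was 1.04, 1.94 and 2.25 in that order of drugs (adjusted p = 0.000269, 3.16e-06 and 2.31e-06), and the groups did not overlap with DMSO.

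CTSV, a cathepsin that can cut the invariant chain, rose with quisinostat and mivebresib (log2 FC 1.41 and 2.30), as did the asparaginyl endopeptidase LGMN (0.70 and 1.3). CTSS, the main invariant chain protease of antigen-presenting cells, had 101 to 160 counts and passed with none of the drugs. MARCH8, a ubiquitin ligase that sends class II molecules for degradation, rose with quisinostat (1.09, adjusted p = 8.74e-05) and mivebresib (0.46, adjusted p = 0.0116, but 0.063 without mivebresib replicate 1). SPPL2A, which clears the invariant chain stub, fell with quisinostat (-0.49, adjusted p = 0.0314) and rose with mivebresib (0.55, adjusted p = 0.0214), but both calls were lost when only the 4 libraries compared were fitted (adjusted p = 0.0847 and 0.0518), and the first also by library size alone (0.159), with upper-quartile factors (0.0965) and with a mean CPM of at least 5 (0.0846). Without DMSO replicate 2 or either quisinostat library the first was lost (0.121, 0.175 and 0.0607), and without either mivebresib library the second (0.0568 and 0.122).

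**Figure D4:**
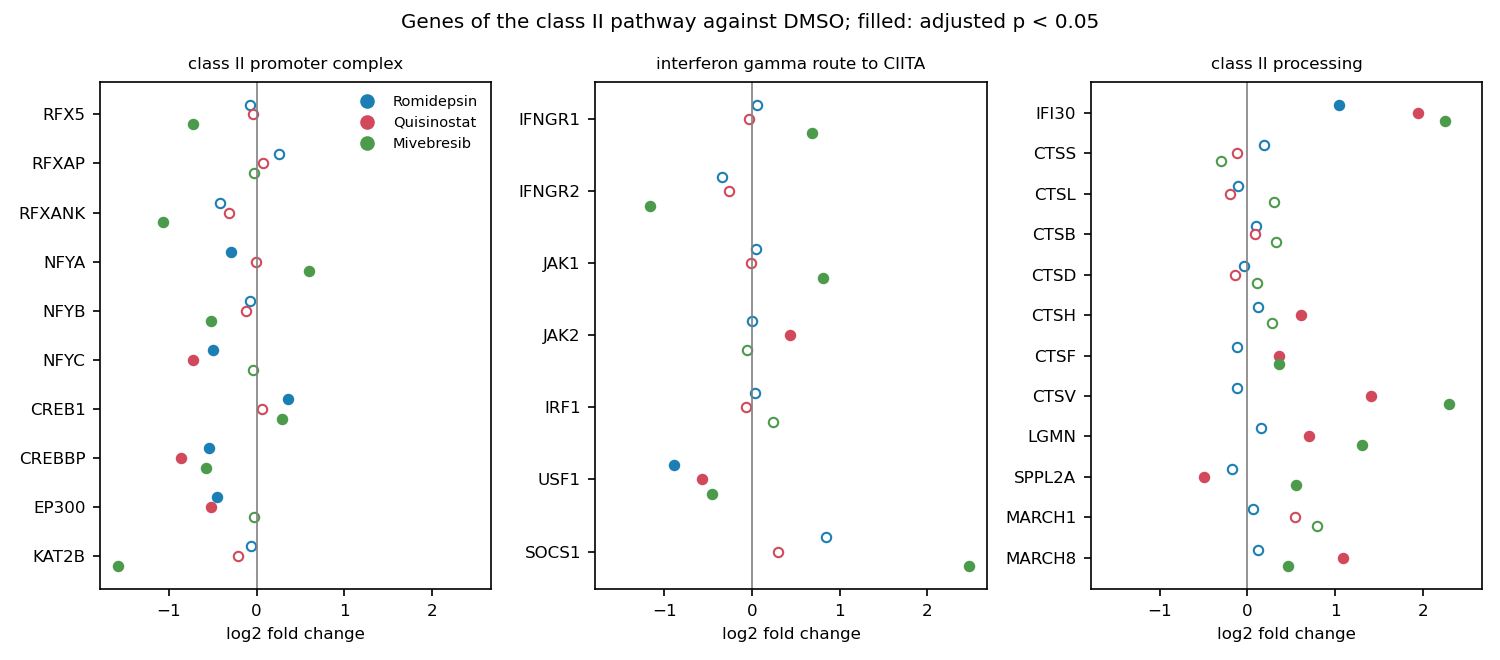
log2 fold change against DMSO (x axis) of genes of the class II promoter complex, the interferon gamma route to CIITA (1 gene of which is not shown) and class II processing, by drug. Filled points passed an adjusted p below 0.05. IFI30 rose with all 3 drugs, and KAT2B fell with mivebresib (log2 FC -1.58).

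Class I genes moved less than HLA-DMB. Of HLA-B, HLA-C, B2M and the class I coactivator NLRC5, HLA-B alone passed with romidepsin and quisinostat (log2 FC 0.42 and 0.59), and HLA-C and B2M passed with mivebresib (0.47 for both). The HLA-B call with romidepsin (adjusted p = 0.0411) was lost without any single library other than DMSO replicate 2. It was also lost with the replicate number as a block (0.0526), with no filter on low counts (0.0518) and with only the 4 libraries compared (0.084). The HLA-C call was lost without either mivebresib library and with only the 4 libraries compared (0.0507). NLRC5, a relative of CIITA, had 63 to 123 counts and passed with none of the drugs.

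Markers of class II-bearing immune cells were low but did not stay level. The summed CPM of 13 haematopoietic markers was 1.24 to 1.68 in DMSO, 2.27 to 2.58 with romidepsin, 3.89 to 3.95 with quisinostat and 1.87 to 2.12 with mivebresib, the same order of groups as for HLA-DMB. CD3E and TYROBP had no counts in any library, PTPRC had at most 11, and 4 of the 13 markers stayed at or below 3 counts everywhere. ITGAX, the integrin CD11c, was the most abundant of them in every library, with 19 and 21 counts in DMSO and 63 and 79 with quisinostat. The fibroblast marker COL1A1 had 40 and 45 counts in DMSO, 143 and 110 with romidepsin, 327 and 251 with quisinostat, and 28 and 48 with mivebresib. PDGFRA, the most abundant fibroblast marker listed, had 354 to 555 counts in DMSO and 471 to 567 with romidepsin. It had 786 to 829 with quisinostat and 194 to 247 with mivebresib. The other fibroblast markers, COL3A1, DCN and LUM, had at most 5 counts. The endothelial markers, CDH5 among them at 0, summed to at most 0.764 CPM. The number of genes with any count also rose, from 17856 and 18075 in DMSO to 19483 and 19561 with quisinostat. The part of any of these in the class II results was not tested.

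The genes whose levels followed those of the members most closely were sought among 12715 tested genes with a mean log2 CPM of at least 0, by Pearson's r over the 8 libraries, which fall into 4 groups and so are not independent points. For CIITA they were HIST2H2BF (r = 0.972), a histone gene, then MSANTD2, EVL, ATG10 and EML1 (r = 0.947 for the last). CD74 was followed by PARS2 (r = 0.970), MARCH1, NR1D1, HTRA3 and RAB43 (r = 0.887). HLA-DRA was followed by TMEM161A (r = 0.963), ZNF132, C2, ZDHHC9 and HADHA (r = 0.924). For HLA-DMB, added after its values had been seen, they were SLC2A4, the insulin-responsive glucose transporter (r = 0.997), LRRN1, KIF3B, BCAS4 and DYNC2H1 (r = 0.993). SLC2A4 had mean levels of 0.451, 1.94, 3.98 and 1.05 CPM in DMSO, romidepsin, quisinostat and mivebresib, against 0.199, 2.36, 6.38 and 0.908 CPM for HLA-DMB. With counts as low as those of CD74 and HLA-DRA, such a ranking is a description of these libraries only.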

How the data were processed

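RNA sequencing of MP38 cells was analysed from the counts per gene symbol that the authors deposited without normalization (8 libraries, 28483235 to 29359024 counts, median 28993875). The study processed its reads through BioJupies, and the submitters' processing notes name hg38. The aligner, annotation and strand setting are not given in the sources used here. The authors' log CPM and quantile-normalized tables were not used. All libraries entered a single edgeR 4.0.16 model (R 4.3.3) with TMM scaling, filterByExpr by group (about 10 counts in 2 libraries, leaving 15085 genes and 6 members), the quasi-likelihood test and Benjamini-Hochberg adjustment over all genes, with 4 residual degrees of freedom and a threshold of 0.05. The script was tested on simulated data. CPM carry TMM factors, and log2 CPM a prior count of 2. DESeq2 1.42.0, limma-voom (limma 3.58.1), other scalings and filters, subsets and each library left out were alternatives. Positions and lengths came from GENCODE 29, promoters (250 bases before to 50 after the start) from RefSeq, with entries for 8 of the 10 members. The members and pathway lists were chosen with earlier results of these data known. Named were the members, any listed gene and, for CIITA, CD74 and HLA-DRA, the 5 most correlated genes. The samples share replicate numbers, but deviations from group means correlated at -0.162 to 0.158 between groups, so the numbers were not taken as pairs. Some genes of the pathway and class I lists are counted but not reported here by name.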

Additional observations from a re-analysis of the deposited data

How the results depend on the processing

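HLA-DMB passed against DMSO and between drugs under every setting that tested it, with a log2 FC of 3.21 to 4.01 for romidepsin, 4.62 to 5.44 for quisinostat and 1.81 to 2.64 for mivebresib when single libraries were left out. With a filter of a mean CPM of at least 5 no member was tested, since none reaches it, so the count of 0 was set by the filter and says nothing of the calls. It stands in place of 2 for romidepsin, 4 for quisinostat, 1 for mivebresib, 3 for quisinostat against romidepsin, 3 lower for mivebresib against quisinostat and 2 lower for mivebresib against romidepsin. Without single libraries, a fit that assumes the lone library to vary like the other groups, the counts were 1 to 2 for romidepsin, 2 to 4 for quisinostat, 1 to 2 for mivebresib, 1 to 3 for quisinostat against romidepsin, 3 lower for mivebresib against quisinostat in each case, and 1 to 2 lower and 0 to 1 higher for mivebresib against romidepsin. The log2 FCs of uncalled members changed sign without single libraries. They ranged from -0.48 to 0.29 for CIITA with romidepsin, -0.86 to 0.70 for CD74 with romidepsin, -0.0074 to 1.55 for CD74 in quisinostat against romidepsin, -0.19 to 0.59 for CD74 in mivebresib against quisinostat, -0.44 to 1.14 for HLA-DRA with romidepsin, -0.99 to 0.70 for HLA-DRA with mivebresib, -1.12 to 0.026 for HLA-DRA in mivebresib against romidepsin, and -0.63 to 0.73 for HLA-DQB1 with romidepsin. CD74 with romidepsin was -0.0081 with limma-voom. The cause of these sign changes was not tested, and their counts are low.

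Of 284 member log2 FCs under the other settings, 279 kept direction and call. Library size alone moved the median log2 FC of all genes from -0.0036 to 0.196 for quisinostat, where 5625 genes rose and 2144 fell in place of 4231 and 3793, and upper-quartile factors gave 5048 and 2673. For romidepsin 2787 rose and 1700 fell by library size alone, in place of 2293 and 2377, and 2883 and 1665 with upper-quartile factors. Fitting only the 4 libraries of a comparison gave 1427 higher and 1116 lower for romidepsin. That setting also ended the calls of PSMB9 with romidepsin (adjusted p = 0.0682) and of MARCH8 and DEXI with mivebresib (0.0541 and 0.0573). The replicate block ended the call of HLA-DQB1 in quisinostat against romidepsin (adjusted p = 0.0578) and no other member's call. The settings were also applied to the pathway genes, an addition made after seeing the data: 41 of their 62 passing log2 FCs kept the call under every setting that tested them, and none changed sign. Depth limits the surface chains among the members, CD74 and HLA-DOA, at or below 28 counts a library, where a change of several fold could be missed.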
